A study of Mus musculus with 8 samples.

Results

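The genes described here are those of the proteasome, the protease that degrades ubiquitin-tagged proteins. They were taken as all non-control probes whose gene name begins with Psma, Psmb, Psmc, Psmd or Psme and a number. The rule found 64 of 41174 probes, which stand for 43 of the 27670 gene names on the array and lie on 16 chromosomes. One of the 43, Psmc3ip, fits the rule by its name but encodes a partner protein of PSMC3 that acts in meiotic recombination and is no subunit. RNA levels were measured with 8 single-colour Agilent arrays, 2 for each of 4 groups of sorted mouse CD4+ T cells, called Treg (regulatory T cells), CD44hi, CD44lo and naive. The mice were males of strain C57BL/6, 15 weeks old, and their spleen and lymph nodes were pooled before the sort. The series title gives the genotype as Ox40-cre/ROSA-YFP. In such mice Cre made from the Ox40 gene, a costimulatory receptor of activated T cells, switches on a lasting YFP label. The labels name no sort marker beyond CD4 and the group names, give no YFP status, and do not say whether the arrays of a group came from separate animals. The p-values therefore measure the spread between these arrays, which may be technical.

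A proteasome has a core particle of stacked rings, with alpha subunits (Psma) outside and beta subunits (Psmb) inside. Psmb5, Psmb6 and Psmb7 cut proteins, and in lymphocytes or after interferon they can be replaced by Psmb8, Psmb9 and Psmb10, which gives the immunoproteasome and favours peptides that fit MHC class I. The core is opened by caps: the 19S regulatory particle, with ATPases (Psmc) and other subunits (Psmd), or the activators PA28 alpha, beta and gamma (Psme1, Psme2, Psme3) and PA200 (Psme4). Lymphoid tissue is known for a large immunoproteasome share.

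The values of the catalytic subunits rest on 60-base probes, and immunoproteasome genes resemble the genes they replace. The probe pairs are shown because their differences decide whether an array can tell the sets apart. Capitals mark bases that are identical in the best gapless alignment of a Psmb8 probe with the probe of its constitutive counterpart Psmb5. The probe named Psmb8 lies at chr17:32280668-32280727 on the plus strand and that of Psmb5 at chr14:49480764-49480823 on the minus strand, both in transcribed sequence on mouse build mm7.
Psmb8: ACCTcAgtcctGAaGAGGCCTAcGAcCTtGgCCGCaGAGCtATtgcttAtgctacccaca
Psmb5: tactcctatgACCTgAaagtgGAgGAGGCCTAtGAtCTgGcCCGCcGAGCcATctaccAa
Of 50 aligned bases 31 were identical, and the longest stretch shared by the 2 probes was 8 bases. A second Psmb8 probe, which was the brighter one and gave the values below, began at chr17:32280725 and ended at chr17:32281049 on the plus strand, a span that includes intron sequence.
Psmb8, second probe: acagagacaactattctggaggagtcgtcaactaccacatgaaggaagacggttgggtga
For Psmb9 (chr17:32262147-32262206, minus strand) and Psmb6 (chr11:70609086-70609145, plus strand) the best alignment held 27 identical of 48 bases. For Psmb10 (chr8:104534632-104534691, minus strand) and Psmb7 (chr2:38620757-38641176, minus strand, across introns) it held 23 of 56. No capitals are used for these probes.
Psmb9: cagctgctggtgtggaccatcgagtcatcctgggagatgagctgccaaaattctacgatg
Psmb6: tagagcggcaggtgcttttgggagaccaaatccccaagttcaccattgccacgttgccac
Psmb10: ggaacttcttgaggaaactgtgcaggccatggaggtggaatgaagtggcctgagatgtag
Psmb7: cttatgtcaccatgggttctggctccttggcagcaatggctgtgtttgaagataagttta
The longest shared stretches were 7 and 6 bases in these pairs.

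Levels are given as log2 of the processed signal minus the 75th percentile of the array, so that 0 is the signal at that percentile and 1 unit is a doubling. Since probes differ in brightness, only differences between groups are compared. Expression was tested with limma in 1 fit of all 8 arrays, over 17996 genes, and genes with a Benjamini-Hochberg adjusted p under 0.05 are named called. Of the 43 genes, 42 were well above background on all 8 arrays. Psma8 was so only on the Treg arrays and had to differ to be tested at all. The naive arrays were unlike each other: the 75th percentile of the signal was 643 on naive array 2, against 1003 on naive array 1 and 1062 to 1363 on the other 6. The 5 CD4 T cell markers on the array were well above background in all 4 groups. The group labels matched their marker genes in part. Foxp3 was 7.75, 4.84 and 5.62 log2 units higher in Treg, CD44hi and CD44lo cells than in naive cells, and higher in Treg than in the other groups. All 4 Treg markers (Foxp3, Il2ra, Ikzf2 and Ctla4) were called higher in CD44hi and CD44lo than in naive cells too. Between Treg and either of these groups 3 were called, and Ikzf2 was not. Cd44 was called higher in CD44hi than in naive cells, but not in CD44lo.

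The proteasome genes differed little among the 4 groups. Leaving out Psma8, the highest and lowest of a gene's 4 group means lay a median of 0.42 log2 units apart (1.33-fold), and at most 0.68 units (1.60-fold, for Psmd13). Without the naive group the median was 0.19 units and the largest value 0.54. The 95% confidence interval of a difference reached a median of 0.45 units (1.37-fold) to either side, and both medians lay within it. The fit shares 1 spread among the 4 groups, and the naive pair added most to it. Between the 2 arrays of a group the members differed by a median of 0.49 in naive cells. In Treg, CD44hi and CD44lo this was 0.09, 0.08 and 0.06, so the interval is not specific to comparisons without naive cells. In bulk samples such as these, fewer cells of a type and less RNA per cell cannot be told apart.

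Few of the 43 genes were called. In Treg minus naive 2 were called, Psma8 higher and Psme4 lower (4.65% of the members, against 22.8% of all genes tested). In Treg minus CD44hi 1 was called, again Psma8 (8.2% of all genes). No member was called in CD44hi minus naive (29.6% of all genes), CD44lo minus naive (5.3%), Treg minus CD44lo (5.62%) or CD44hi minus CD44lo (9.39%). At an unadjusted p under 0.05 in limma, 7 members passed in CD44hi minus naive (42.7% of all genes), 6 in CD44lo minus naive (20.3%), 1 in Treg minus CD44lo (18.4%) and 1 in CD44hi minus CD44lo (23.1%). The same count was 3 in Treg minus naive (39.3%) and 1 in Treg minus CD44hi (20.8%). The F-test over the 4 groups called 1 member, Psma8, against 23% of all genes. Each comparison with naive uses the same naive arrays. The smallest p of an exact permutation test of 2 against 2 arrays is 0.333, so all calls rest on the spread that limma shares between genes.

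**Figure D1:**
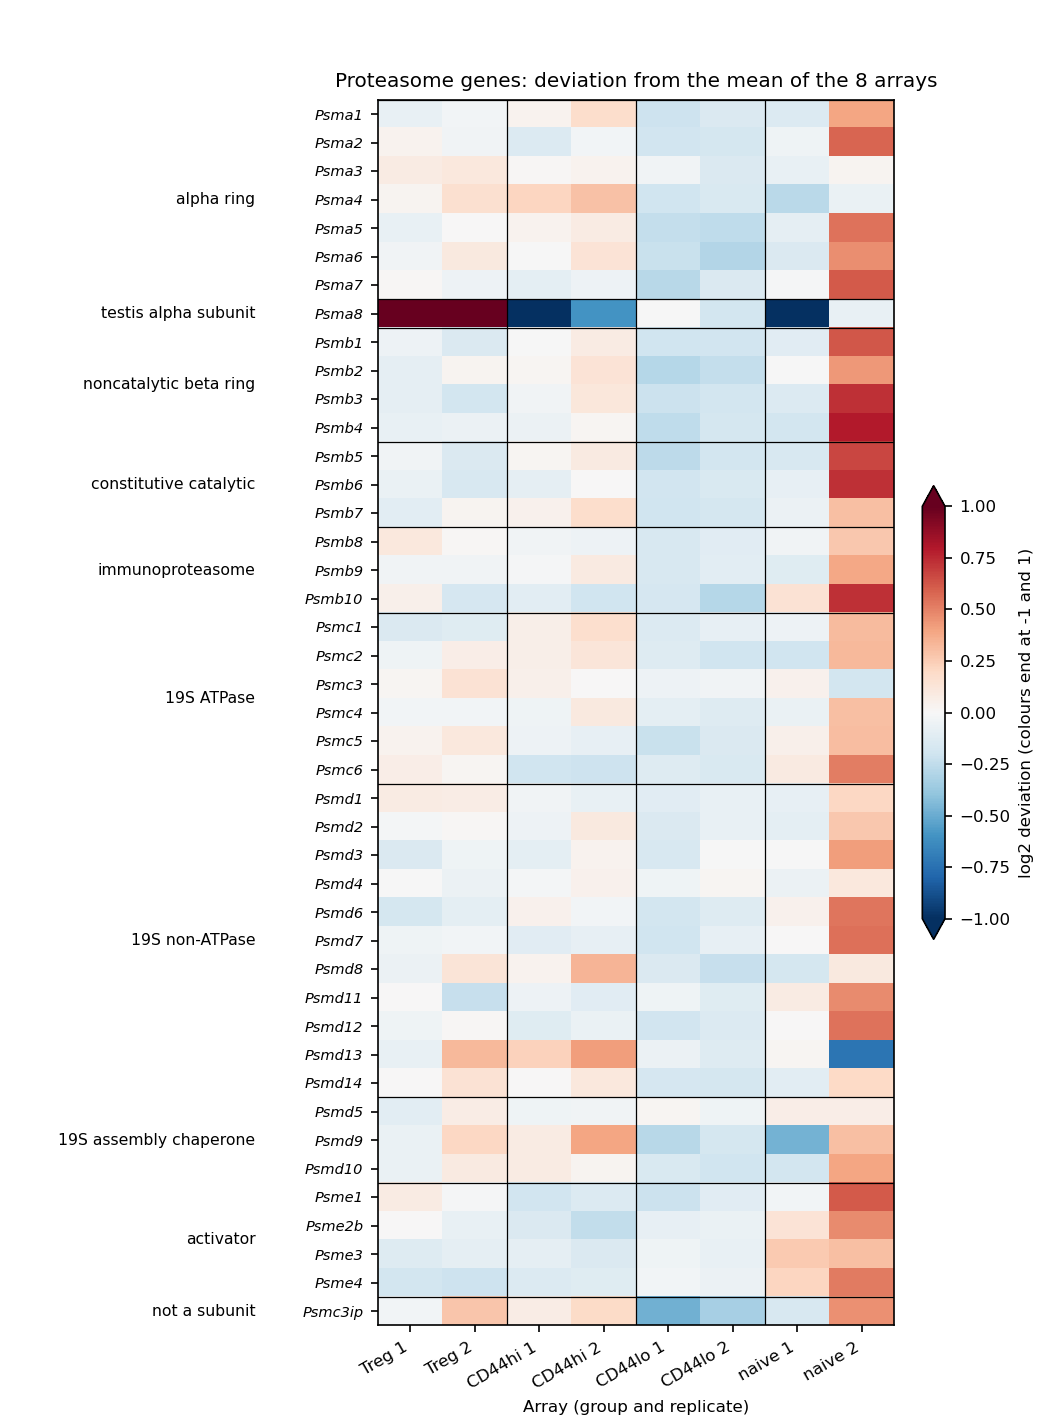
Log2 deviation of each of the 43 genes (rows, by role) from its own mean over the 8 arrays (columns, by group and replicate), with red above and blue below that mean and colours ending at -1 and 1. The last column, naive array 2, holds the highest value of 35 genes (44.9% of all genes tested have theirs there). On each CD44lo array only 1 gene lies above its mean, a count that was not made over all genes.

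None of the 3 immunoproteasome subunits passed the test in any of the 6 comparisons. Psmb8, the chymotrypsin-like immunoproteasome subunit, measured 6.21 and 6.12 in Treg, 6.07 and 6.06 in CD44hi, 5.95 and 6.00 in CD44lo, and 6.08 and 6.38 in naive cells. Both Treg arrays lay above those of CD44hi and CD44lo, and the naive arrays overlapped with Treg. The Treg minus naive difference was -0.06 (95% confidence interval -0.43 to 0.32, adjusted p = 0.790 in limma). On the dimmer Psmb8 probe Treg had 6.04 and 5.91, CD44hi 5.92 and 5.84, CD44lo 5.76 and 5.77, and naive cells 5.79 and 6.18. There Treg overlapped with CD44hi and stayed above CD44lo. Psmb9, which replaces Psmb6, measured 5.24 and 5.24 in Treg, 5.26 and 5.36 in CD44hi, 5.11 and 5.17 in CD44lo, and 5.15 and 5.66 in naive cells. The naive arrays enclosed all 4 values of Treg and CD44hi, and the Treg minus naive difference was -0.16 (-0.63 to 0.30, adjusted p = 0.545). Psmb10, which replaces Psmb7, measured 5.75 and 5.52 in Treg, 5.59 and 5.50 in CD44hi, 5.53 and 5.41 in CD44lo, and 5.84 and 6.42 in naive cells. Its naive arrays lay above the other 6, yet the differences of -0.50, -0.59 and -0.66 for Treg, CD44hi and CD44lo minus naive were not called (adjusted p = 0.143, 0.0862 and 0.178).

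No difference of their constitutive counterparts was called either. Psmb5, the chymotrypsin-like subunit that Psmb8 replaces, measured 3.27 and 3.16 in Treg, 3.33 and 3.40 in CD44hi, 3.05 and 3.12 in CD44lo, and 3.15 and 3.98 in naive cells. Psmb6 measured 4.42 and 4.33 in Treg, 4.40 and 4.49 in CD44hi, 4.30 and 4.34 in CD44lo, and 4.41 and 5.22 in naive cells. Psmb7, the trypsin-like subunit, measured 2.09 and 2.22 in Treg, 2.24 and 2.37 in CD44hi, 1.99 and 2.02 in CD44lo, and 2.13 and 2.49 in naive cells. In all 3 genes the CD44hi arrays lay above the CD44lo arrays, and naive array 2 was the highest of the 8. The group means of Psmb5, Psmb6, Psmb7 and Psmb9 were ordered naive, CD44hi, Treg and CD44lo from high to low, while those of Psmb8 and Psmb10 had Treg above CD44hi.

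**Figure D2:**
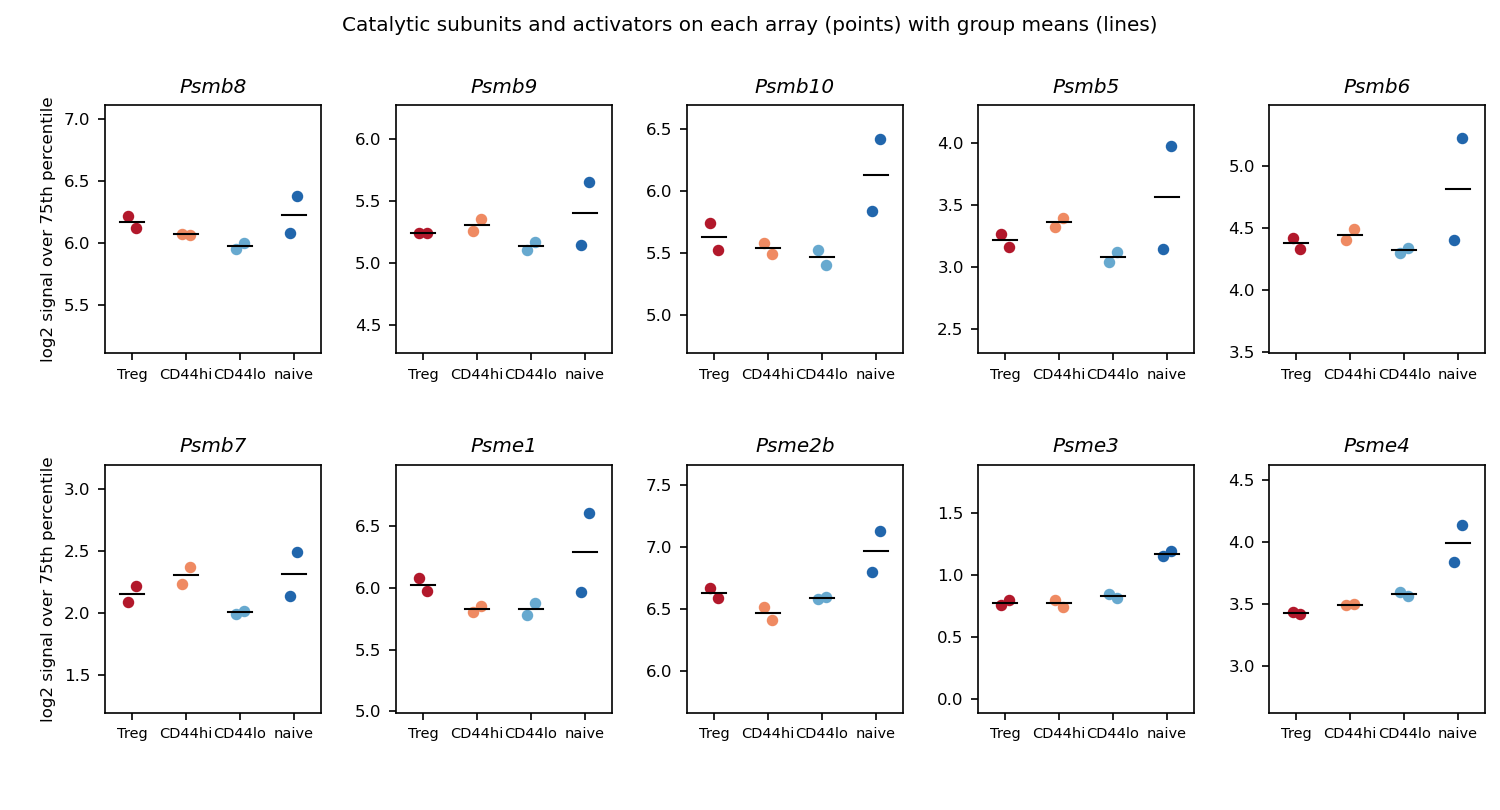
Log2 signal over the array's 75th percentile on each array (points) with group means (lines) for the immunoproteasome subunits, their constitutive counterparts and the activators, each panel spanning 2 log2 units. The catalytic genes have overlapping or nearly touching groups with a wide naive pair. Both naive arrays of Psmb10, Psme2b, Psme3 and Psme4 lie above the other 6.

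Set against the other 40 members, the 3 immunoproteasome genes had a slightly lower mean relative to naive cells, but not a lower median throughout. Their mean difference was -0.24, against -0.10 for the others, in Treg minus naive, -0.28 against -0.14 in CD44hi minus naive, and -0.39 against -0.28 in CD44lo minus naive. The gap between the sets was thus -0.14, -0.14 and -0.11, where the gap on single arrays of a group varied with a pooled SD of 0.0611. Among the 3 other comparisons it stayed between -0.035 and 0.0086. The medians were -0.16 against -0.21 in Treg minus naive, -0.16 against -0.13 in CD44hi minus naive, and -0.27 against -0.35 in CD44lo minus naive, so that the sign of the gap turned in 2 of the 3. With genes above background on all arrays, which drops Psma8 from the others, the gap of the means in Treg minus naive was -0.069. The gap also depended on the scaling: with quantile normalization it was -0.028, -0.0024 and 0.033 for Treg, CD44hi and CD44lo minus naive, and in the authors' deposited values it was 0.017, 0.01 and 0.053. Of the 3 genes, Psmb10 had the lowest difference from naive. It lay below the range of the other members in CD44hi and CD44lo minus naive (lowest others -0.50 and -0.55) and inside it in Treg minus naive (-0.56), while Psmb8 and Psmb9 lay inside the range in all 3.

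Psmb9 shares its start region with Tap1, which encodes a subunit of the peptide transporter of MHC class I loading. On GRCm38 the genes run apart from each other on chromosome 17, Psmb9 (34182030 to 34187330) on the minus and Tap1 (34187556 to 34197225) on the plus strand, with Psmb8 (34198195 to 34201454) next to Tap1. The 225 bases between them, chr17:34187331-34187555 in RefSeq's promoter table, are shown on the plus strand because both genes are transcribed from this stretch. Capitals mark the CCAAT box and the GC box (GGGCGG), here read on the other strand, 1 match each.
Psmb9 to Tap1: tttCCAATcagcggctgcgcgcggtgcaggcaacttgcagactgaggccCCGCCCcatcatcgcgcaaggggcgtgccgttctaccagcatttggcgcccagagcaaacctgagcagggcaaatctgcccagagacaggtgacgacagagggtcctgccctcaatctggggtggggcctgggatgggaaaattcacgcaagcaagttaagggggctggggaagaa
Tap1 measured 2.96 and 3.04 in Treg, 2.87 and 2.82 in CD44hi, 2.83 and 2.94 in CD44lo, and 2.93 and 1.54 in naive cells. On 7 arrays both genes held within narrow ranges, and on naive array 2 Psmb9 was at its highest and Tap1 at its lowest. No Tap1 difference was called (0.76 log2 units in Treg minus naive, adjusted p = 0.205).

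The alpha ring genes Psma1 to Psma7, which form the gate of the core, showed the most uniform pattern. All 7 were higher on both Treg arrays and on both CD44hi arrays than on either CD44lo array (26.6% and 28.8% of all genes tested were), by medians of 0.19 and 0.28 log2 units. None of these differences was called. Psma4 had the largest, with 2.48 and 2.62 in Treg, 2.67 and 2.75 in CD44hi, 2.26 and 2.31 in CD44lo, and 2.19 and 2.40 in naive cells. Its CD44hi arrays lay above the CD44lo and naive arrays, by 0.43 (adjusted p = 0.147) and 0.42 (adjusted p = 0.0782). A second probe for the transcript gave 0.31 and 0.36.

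Psma8, an alpha subunit made mainly in testis that takes the place of Psma7 there, differed from the other members in its values. Its single probe measured -4.52 and -4.60 in Treg, -7.46 and -6.89 in CD44hi, -6.30 and -6.48 in CD44lo, and -7.75 and -6.37 in naive cells. Both Treg arrays stood above the other 6, on which the probe was not well above background. With the dim arrays raised to the lowest signal well above background on each, Treg was 2.80-fold higher than naive and 3.41-fold higher than CD44hi. The CD44lo arrays already lay above that floor, so the 3.55-fold over CD44lo is the value as measured. The adjusted p in limma, from the values before raising, was 0.00837 against naive and 0.0150 against CD44hi. Against CD44lo the call was missed (adjusted p = 0.0664). Because the probe entered the test only through the Treg arrays, these p-values describe the probe and support nothing further. With no filter on dim probes the adjusted p was 0.028 against naive and 0.0491 against CD44hi. On slide 1 Treg minus naive was 1.85 and on slide 2 3.15 log2 units. The value depends on how the background is treated. With normexp correction of the spot means, the Treg minus naive difference was 0.08 (adjusted p = 0.767), and in the authors' deposited values, which were read as not background-subtracted, it was 0.62. Without Treg array 2 the adjusted p against naive was 0.0501, and without Treg array 1, Treg array 2 or CD44hi array 1 the adjusted p against CD44hi was 0.0947, 0.0853 and 0.0659.

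The 4 structural beta genes Psmb1 to Psmb4, which line the inner rings without cutting, were higher on both CD44hi arrays than on both CD44lo arrays, with a median difference of 0.24. Of all genes tested 28.8% were higher on both CD44hi arrays and 39.7% lower. Among the 6 ATPases of the 19S base, which unfold substrates, 5 did the same (median over the 6, 0.13). By the probe used, Psmc6 went the other way, with 3.89 and 3.88 in CD44hi against 3.96 and 3.93 in CD44lo cells. A dimmer Psmc6 probe was higher in CD44hi, with 0.11 and 0.14 against -0.04 and -0.08. A dimmer Psmc2 probe was lower in CD44hi, with -1.86 and -1.95 against -1.66 and -1.83, unlike the Psmc2 probe used. Of the 11 other 19S subunits, which include the ubiquitin receptor Psmd4 and the deubiquitinase Psmd14, 7 were higher on both CD44hi arrays (median over the 11, 0.07). By the probes used, Psmd4 was the steadiest member, with group means only 0.05 apart. A dimmer Psmd4 probe was less steady. It had -0.74 and -0.86 in Treg, -0.58 and -0.67 in CD44hi, -0.38 and -0.33 in CD44lo, and -0.31 and -0.45 in naive cells. Psmd13, a lid subunit, had the widest range after Psma8, with 0.42 and 0.82 in Treg, 0.73 and 0.92 in CD44hi, 0.43 and 0.36 in CD44lo, and 0.52 and -0.23 in naive cells. Unlike most members it was lowest on naive array 2, and no difference of Psmd13 was called. Psmd5, Psmd9 and Psmd10 are chaperones that help to build the 19S particle and leave it afterwards. Psmd9 measured -0.39 and -0.12 in Treg, -0.24 and 0.07 in CD44hi, -0.60 and -0.50 in CD44lo, and -0.80 and -0.02 in naive cells, so that its naive arrays enclosed nearly all others.

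**Figure D3:**
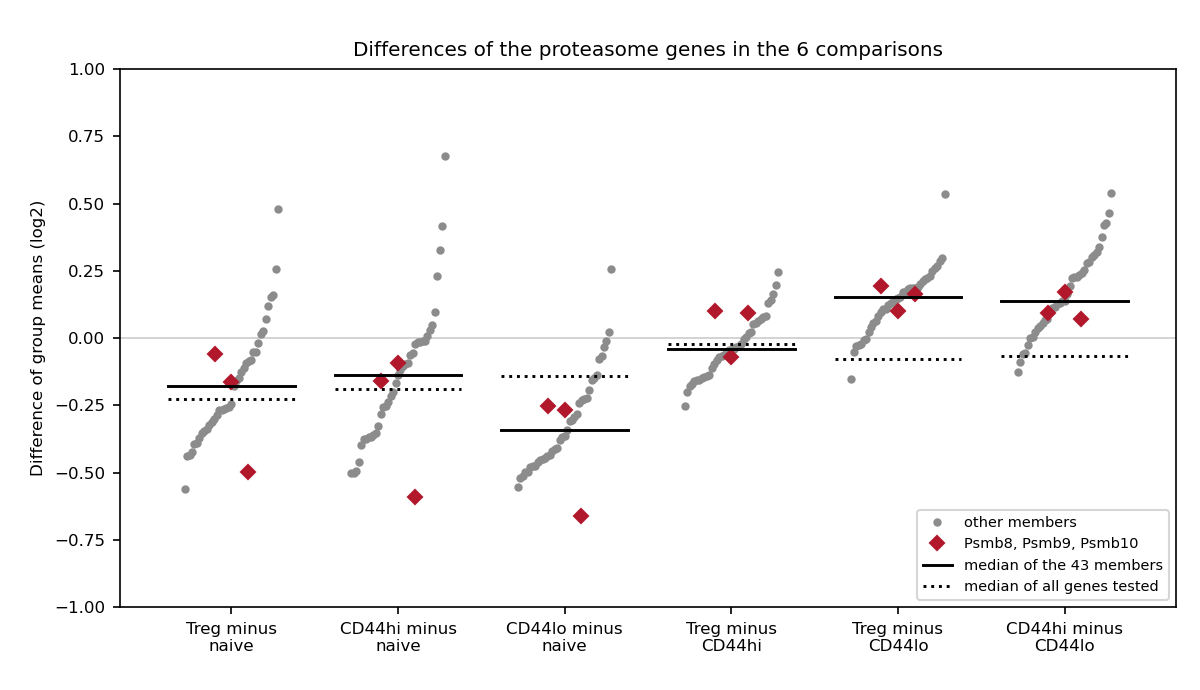
Differences of group means (log2, vertical axis) in the 6 comparisons for the members other than Psma8 (grey), with Psmb8, Psmb9 and Psmb10 as red diamonds, the median of the 43 members as a solid line and of all genes tested as a dotted line. In Treg and CD44hi minus CD44lo the members' medians are 0.15 and 0.14, above the all-gene medians of -0.08 and -0.07. Psma8 is not drawn.

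Over the whole set, CD44lo was the group with the lowest levels. Leaving out Psma8, 31 of 42 genes had their lowest group mean in CD44lo and 33 their highest in naive. Lowest and highest groups were not counted over all genes. Group means above naive were found in 9, 8 and 3 of 43 members for Treg, CD44hi and CD44lo. Of all genes tested 34.8%, 37.2% and 37.2% were above, so most lay below naive too. Means above CD44lo were found in 36 members for Treg (40.3% of all genes) and 37 for CD44hi (43.4%). Both CD44hi arrays lay above both CD44lo arrays in 31 of 43 genes (28.8% of all genes tested did so) and below them in 5 (39.7%). Both Treg arrays lay above both CD44lo arrays in 30 genes (26.6% of all genes) and below them in 2, Psme3 and Psme4 (38.4%). These 2 comparisons share the CD44lo arrays. The median difference was 0.14 in CD44hi minus CD44lo, against -0.07 over all genes, and 0.15 in Treg minus CD44lo, against -0.08. The gap to the other genes was small beside the error that the fit gave a single gene, to which the naive pair added most. That error does not measure the spread of a median over 43 genes, which was not estimated. The gap was in the same direction under each scaling tried. The number of members higher on both arrays was 23 to 31 for CD44hi (24.9% to 29% of all genes). For Treg it was 28 to 34 (24.4% to 27.8% of all genes). Each slide carried 1 array of each group, so a gene without overlap must have the same sign on both slides. The split by slide therefore restates the same arrays and adds no support. The median was 0.09 on slide 1 and 0.20 on slide 2 in CD44hi minus CD44lo, and 0.12 and 0.18 in Treg minus CD44lo. In genes with several probes, 16 of the 20 other probes had the sign of the probe used in CD44hi minus CD44lo, and 18 of 20 in Treg minus CD44lo. Agreement was lower against naive cells, with 14, 9 and 14 of 20 for Treg, CD44hi and CD44lo minus naive. In Treg minus CD44hi it was 18 of 20. Between Treg and CD44hi neither direction prevailed, with 10 genes higher on both Treg arrays (29% of all genes) and 11 lower (31%).

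Other gene lists moved in the same 2 comparisons. Of 18 cell division genes, 14 rose in Treg minus CD44lo and 15 in CD44hi minus CD44lo, with median differences of 2.33 and 3.17. Of 7 B cell markers, 3 rose in Treg and 2 in CD44hi relative to CD44lo, with median differences over the 7 of -0.24 and 0.66. The summed B cell level was 2.05 to 2.11 log2 units in Treg, 1.78 to 1.98 in CD44hi, 0.61 to 1.17 in CD44lo and -2.21 to -1.33 in naive cells, with 5, 6, 5 and 4 of the 7 markers well above background. The part of these lists in the proteasome values was not tested.

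The level of the members relative to naive cells could not be settled from these arrays. With the 75th percentile as the scale, the median difference was -0.18 for Treg, -0.14 for CD44hi and -0.34 for CD44lo, while all genes had medians of -0.22, -0.19 and -0.14. Both arrays were lower than both naive arrays in 10 members for Treg (43.9% of all genes), 14 for CD44hi (41.9%) and 29 for CD44lo (37.6%). Both were higher in 3 members for Treg (Psma3, Psma4 and Psma8, 20.7% of all genes), 2 for CD44hi (Psma4 and Psmd13, 22.3%) and 0 for CD44lo (17.7%). Naive array 2 was above naive array 1 in 40 of 43 members, by a median of 0.44 (0.26 over all genes, of which 69.2% were above), and it held the highest of the 8 values in 35 members (44.9% of all genes). Under 2 other scalings the shift of the members was no larger than that of all genes: naive array 2 was above in 29 members by a median of 0.099 with quantile normalization (0.13 over all genes) and in 29 by 0.09 in the authors' deposited values (0.10 over all genes). In 3 other settings it stayed larger: in 40 members by 0.40 with normexp (0.35 over all genes), 41 by 0.50 with median centring (0.32) and 37 by 0.40 with the mean of a gene's probes (0.16). With quantile normalization the medians for Treg and CD44hi were 0.10 and 0.10, in the authors' deposited values 0.07 and 0.095, and without naive array 2 they were 0.039 and 0.090. Within slide 1, which carried naive array 2, the medians were -0.46 for Treg, -0.40 for CD44hi and -0.53 for CD44lo. Within slide 2, which carried naive array 1, they were 0.03, 0.14 and -0.10. The sign for Treg and CD44hi thus turned with the scaling or with 1 array. With quantile normalization, in the authors' deposited values and without naive array 2 the median for CD44lo stayed below 0, at -0.083, -0.09 and -0.088, close to the medians of all genes, -0.089, -0.065 and -0.052. Without naive array 1, which leaves array 2 as the only naive sample, 27, 25 and 32 members were called in Treg, CD44hi and CD44lo minus naive, against 53.1%, 53.4% and 41.8% of all genes. The summed level of 7 CD8 T and NK cell markers also set naive cells apart, at 2.60 to 2.68 log2 units in Treg, 2.44 to 2.57 in CD44hi, 3.11 to 3.31 in CD44lo and 4.13 to 4.49 in naive cells. The list was mixed: in Treg and in CD44hi minus naive, Klrb1c and Gzma rose and Cd8b1, Klrd1 and Prf1 fell. Of these markers 6, 5, 5 and 5 were well above background, and their part in the result was not tested.

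**Figure D4:**
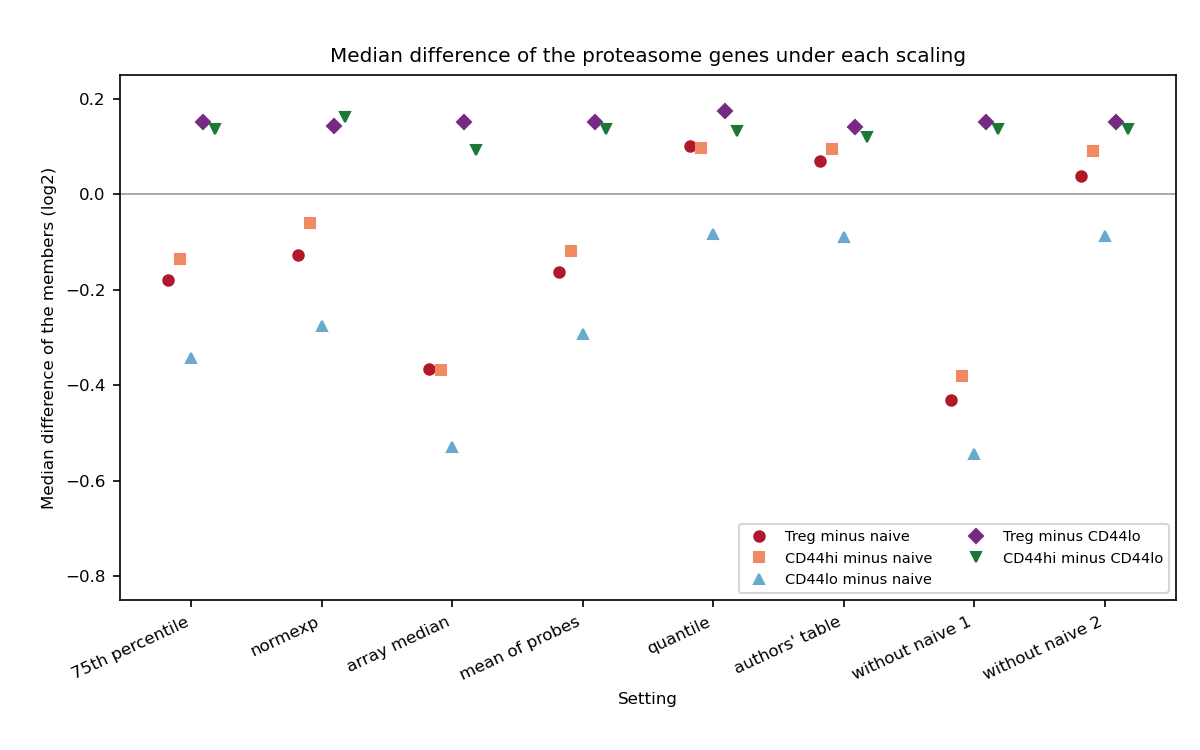
Median log2 difference of the 43 members (vertical axis) in 5 comparisons (symbols) under 6 ways of scaling or summarising the signal and without each naive array (horizontal axis). The medians of Treg and CD44hi minus naive lie on either side of 0, from -0.43 to 0.10 and from -0.38 to 0.10, while those of Treg and CD44hi minus CD44lo stay above 0.

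Of the activator genes, all but Psme1 had both naive arrays above the other 6, as did Psmb10, Psmc6, Psmd6, Psmd7 and Psmd11. In single comparisons such an order is common: both arrays lay below both naive arrays in 43.9% of all genes for Treg, 41.9% for CD44hi and 37.6% for CD44lo. The share of all genes with this order in every comparison with naive was not counted. Psme4 (PA200, which drives degradation of acetylated histones) measured 3.44 and 3.42 in Treg, 3.49 and 3.50 in CD44hi, 3.60 and 3.57 in CD44lo, and 3.84 and 4.14 in naive cells. The 3 other groups lay below both naive arrays without overlap, with Treg the lowest. The difference was -0.56 in Treg minus naive (standard error 0.156, adjusted p = 0.0448), -0.49 in CD44hi minus naive (adjusted p = 0.0544) and -0.41 in CD44lo minus naive (adjusted p = 0.223). With slide as a block the adjusted p was 0.0684, and the difference was -0.70 on slide 1 and -0.42 on slide 2. The call lay close to the threshold, and it was kept in 7 of 19 alternative settings, with the same sign in all 19. A second probe, which crosses an intron at chr11:30828874-30830432 (mm7, plus strand), is shown because it gave the same order of groups from another stretch of the transcript.
Psme4: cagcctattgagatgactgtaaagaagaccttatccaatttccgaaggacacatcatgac
That probe measured 0.02 and 0.12 in Treg, 0.27 and 0.15 in CD44hi, 0.38 and 0.24 in CD44lo, and 0.60 and 0.52 in naive cells. Its Treg minus naive difference was -0.49 (adjusted p = 0.0598 in a fit of all probes). Of the 2 remaining Psme4 probes, which were dimmer, 1 had a difference of -0.07 with naive arrays at -2.05 and -3.24, and the other of -0.51.

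Psme3 (PA28 gamma, a nuclear activator) had 0.75 and 0.80 in Treg, 0.80 and 0.74 in CD44hi, 0.84 and 0.81 in CD44lo, and 1.15 and 1.19 in naive cells. The naive arrays were close to each other and above all others, by 0.39, 0.40 and 0.34 log2 units over Treg, CD44hi and CD44lo, which missed the call (adjusted p = 0.0770, 0.0651 and 0.228). Psme1 (PA28 alpha) had 6.07 and 5.97 in Treg, 5.80 and 5.85 in CD44hi, 5.78 and 5.87 in CD44lo, and 5.97 and 6.61 in naive cells. Its partner PA28 beta is covered by probes that the files name Psme2b-ps, which lie on chromosome 14 of mm7 although GRCm38 has Psme2b on chromosome 11 and Psme2 on chromosome 14. Signals from Psme2 and its near-identical copy cannot be told apart by these names. These probes had 6.66 and 6.59 in Treg, 6.51 and 6.41 in CD44hi, 6.57 and 6.60 in CD44lo, and 6.80 and 7.13 in naive cells. Both naive arrays were above the other 6, and the largest difference, -0.50 in CD44hi minus naive, was not called (adjusted p = 0.0596).

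Psmc3ip, the member that is no subunit, had -0.79 and -0.48 in Treg, -0.69 and -0.57 in CD44hi, -1.24 and -1.09 in CD44lo, and -0.92 and -0.31 in naive cells. Both CD44lo arrays lay below the other 6, by 0.53 to 0.55 log2 units on average, with no call.

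Most members moved together from array to array. Over the 8 arrays the median correlation of 2 members was 0.75 (861 pairs of 42 genes). Without naive array 2 it was 0.42, and over the 6 arrays without naive cells it was 0.51. Psmb8 and Psmb9 correlated at 0.85 over 8 arrays and 0.46 over the 7 arrays without naive array 2. For Psmb8 and Psmb10 these values were 0.87 and 0.55, and for Psmb9 and Psmb10 they were 0.78 and -0.17. Over the 6 arrays without naive cells the 3 pairs stood at 0.50, 0.77 and 0.14. These values describe arrays that share a scale, and no test was made.

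Of the genes that work beside the proteasome, few were called. Among 19 tested genes for assembly, regulation and delivery of substrates, 1 was called in any comparison, Nfe2l2 (NRF2, the antioxidant response factor that also acts on proteasome genes). Nfe2l2 measured 1.85 and 1.73 in Treg, 2.45 and 2.36 in CD44hi, 3.05 and 2.85 in CD44lo, and 3.31 and 3.79 in naive cells. The groups did not overlap, and Nfe2l2 fell by 1.76 in Treg (adjusted p = 0.00127) and by 1.15 in CD44hi (adjusted p = 0.00674) relative to naive, and by 1.16 in Treg relative to CD44lo (adjusted p = 0.0220). Pomp, the chaperone that builds new core particles, measured 5.19 and 5.18 in Treg, 5.30 and 5.41 in CD44hi, 4.96 and 5.10 in CD44lo, and 4.97 and 5.66 in naive cells, with no call. Among the ubiquitin and activating enzyme genes, Rps27a, which encodes a ribosomal protein fused to ubiquitin, fell by 0.73 in CD44hi minus naive (adjusted p = 0.0407).

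Interferon gamma induces the immunoproteasome genes, and its own gene, Ifng, differed between groups in which Psmb8, Psmb9 and Psmb10 did not pass the test. Ifng was 6.25, 8.63 and 6.08 log2 units higher in Treg, CD44hi and CD44lo than in naive cells (adjusted p = 0.000223, 6.18e-05 and 0.000583). Irf1, an interferon-induced transcription factor, fell by 0.67 in CD44hi minus naive (adjusted p = 0.0457). The list of 11 interferon gamma pathway genes, which holds Ifng and Irf1, was mixed. In Treg minus naive 4 were called higher and 2 lower, and in CD44hi minus naive 2 higher and 4 lower. In CD44lo minus naive only Ifng was called. The part of interferon in the immunoproteasome values was not tested. None of 12 tested genes of MHC class I processing was called in any comparison by limma, and at an unadjusted p under 0.05 the most that passed in a comparison was 3. Of the 18 cell division genes, 15, 15 and 4 rose in Treg, CD44hi and CD44lo relative to naive cells.

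RefSeq's promoter table (GRCm38.p6, 250 bases before to 50 after the start) held 36 of the 43 members. The others were Psma8, Psmb1, Psmb2, Psmb7, Psmc3, Psmd3 and Psmd7. An ETS site (CCGGAAG, both strands) was in 13 of 36 promoters (36.1%), against 9.93% of all genes in the table and 18.4% of the genes tested. A GC box was in 21 (58.3%, against 38.2% and 63.8%) and a CCAAT box in 14 (38.9%, against 41.1% and 42.3%). The core of the antioxidant response element, TGACNNNGC, was in 6 promoters (16.7%, against 14% and 16.8%), those of Psmb5, Psmb6, Psmc6, Psmd9, Psmd12 and Psme4. The core of the interferon-stimulated response element (GAAA, any 2 bases, GAAA) was in 4 promoters (11.1%, against 3.99% and 3.76%), those of Psmb3, Psmd4, Psmd9 and Psme1. The gamma-activated site, TTCNNNGAA, was in 2 (5.56%, against 9.55% and 8.42%), those of Psmb8 and Psmd2. These are matches of letters on either strand within the window, not sites shown to be bound.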

How the data were processed

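RNA of 8 samples was measured on single-colour Agilent arrays. Per the file headers, the deposited scanner files hold spot signals as an intensity and were made with Agilent's image software, version 9.5.1.1. The processed signal is background-subtracted within the array and not normalized between arrays. Flags per spot are of unit other, per the file headers. The authors' deposited value table is on a log2 scale, and the submitters' processing notes name limma, with no further step. Its columns share medians of 6.86 to 6.88 and followed the raw spot signal, so it was read as normalized between arrays.

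From these files, the processed signal of each array was divided by its 75th percentile, taken over spots other than controls, and put on a log2 scale. Spots flagged as outliers were left out unless they were a probe's only ones, spots of a probe were averaged, and the brightest probe on average stood for a gene. Names came from RefSeq through accessions (22951 probes), symbols (6659) or older symbols (3109), and 8455 probes kept the files' name. Genes were tested if some group had the probe well above background on its 2 arrays, using limma 3.58.1 in R 4.3.3 (4 residual and 2.66 prior degrees of freedom), in 2-sided tests at an adjusted p under 0.05. The tests were checked on simulated data. The number of arrays limits the precision. Each group had 1 array on each of 2 slides, taken from the file headers.

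Members and gene lists were chosen with earlier results of these data known. Every member could be named. Values on every array were given for the immunoproteasome subunits, their counterparts, the activators, called members and members below background in some group, and for the members with the widest ranges. Alternatives were normexp (offset 50), quantile normalization, median centring, the authors' table, other filters and probe rules, blocks, an intensity trend, fits of 2 groups and leaving out each array. Some genes of the lists are not reported here.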

Additional observations from a re-analysis of the deposited data

How the results depend on the processing

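With 2 arrays a group, the 95% interval of a single gene reached a median of 0.45 log2 units (1.37-fold) to either side. It rests on 1 spread shared by the 4 groups, to which the naive pair added most. The number of members called was 2 in Treg minus naive (Psma8 higher, Psme4 lower). It was 1 under normexp and with genes above background on all 8 arrays (Psme4), and 1 with no filter, with the mean of probes, with slide as a block, with only the compared groups and in a fit of all probes (Psma8). Quantile normalization and the authors' table also gave 2, but Psma4 and Psma8, both higher, and median centring and an intensity trend gave 3, with Psme3 lower as well. In CD44hi minus naive (0) it was 2 under normexp (Psma4 and Psmd13, both higher), 1 under quantile normalization, 5 under median centring (all lower), 2 with the authors' table, 2 with genes above background on all arrays and 5 with an intensity trend. In Treg minus CD44hi (1) it was 0 under normexp and with genes above background on all arrays. In Treg minus CD44lo (0) it was 1 with the authors' table and with only the compared groups, and in CD44hi minus CD44lo (0) 1 with the authors' table. Over the 4 groups (1) it was 0 under normexp, with no filter and with genes above background on all arrays, and 2 under quantile normalization, median centring and the authors' table. Psma8 cannot be called where genes must be above background on all arrays. The cause of the other changes was not tested.

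Leaving out 1 array at a time gave 0 to 27 members called in Treg minus naive, 0 to 25 in CD44hi minus naive, 0 to 32 in CD44lo minus naive, 0 to 1 in Treg minus CD44hi, in Treg minus CD44lo and in CD44hi minus CD44lo, and 0 to 28 over the 4 groups. The counts of 25 and more came from leaving out naive array 1. The lone array left in a group was assumed to vary like the other groups.

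The immunoproteasome genes minus the other members gave -0.14 in Treg minus naive, and -0.056 under normexp, -0.028 under quantile normalization, 0.017 for the authors' values and -0.069 with genes above background on all arrays. In CD44hi minus naive (-0.14) quantile normalization gave -0.0024 and the authors' values 0.01, in CD44lo minus naive (-0.11) they gave 0.033 and 0.053, and in Treg minus CD44hi (0.0086) genes above background on all arrays gave 0.075. Without single arrays the gap was -0.21 to -0.061, -0.19 to -0.10 and -0.12 to -0.097 for Treg, CD44hi and CD44lo minus naive, -0.066 to 0.083 in Treg minus CD44hi, -0.10 to 0.049 in Treg minus CD44lo and -0.075 to 0.0061 in CD44hi minus CD44lo. The median of all genes in Treg minus naive was -0.22, and -0.41 under median centring and -0.10 with the authors' table.

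Psme4 in Treg minus naive kept its sign in all 19 alternatives, from -0.75 to -0.23, and was called in 7, with adjusted p from 0.00502 to 0.217. Psma8 was called in 16 of 18 in Treg minus naive and 14 of 18 in Treg minus CD44hi.

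The replicate number as a block left 2 members called in Treg minus naive (Psma8 and Psme4), 1 in Treg minus CD44hi and 0 in the 4 other comparisons. Same-numbered arrays of 2 groups deviated together with correlations of 0.056 to 0.33, and with only 2 numbers a group they were not taken as paired.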

Other observations

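Psmb11, the catalytic subunit of the thymoproteasome in cortical thymic epithelium, is on the array under an older name and falls outside the rule. Its 2 probes were well above background in 0 of 16 probe values.

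Among the 3389 genes called by the F-test that have a current symbol, those whose levels followed the mean of Psmb8, Psmb9 and Psmb10 most closely over the 8 arrays were H2-Eb1 (r = 0.89), Alox5ap (0.89), H2-Ab1 (0.87), Atp5mpl (0.86) and H2-Aa (0.85). The 8 arrays share their scale and naive array 2 is the highest in each, so these are descriptions. Of these, H2-Eb1, H2-Ab1 and H2-Aa encode MHC class II chains, and Alox5ap acts in leukotriene synthesis. H2-Ab1 measured -1.40 and -1.49 in Treg, -1.07 and -1.20 in CD44hi, -3.15 and -2.85 in CD44lo, and -0.05 and 1.18 in naive cells. The summed level of 10 myeloid and dendritic cell markers was 2.98 to 3.09 log2 units in Treg, 3.01 to 3.14 in CD44hi, 2.64 to 2.76 in CD44lo and 2.61 to 3.31 in naive cells, with 8, 9, 9 and 9 of the 10 well above background. The part of such cells in the class II and immunoproteasome values was not tested.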
